A study of Mus musculus with 14 samples.

Results

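The comparison described here sets the open chromatin of 4T1 cells after 36 h of hypoxia against that of 4T1 cells in normoxia. Its members were all peaks of the 2 lists, 62695 peaks at 36 h and 60070 in normoxia, which are 122765 of the 463526 peaks in the 7 lists of the series. A 36 h peak that shared no base with any normoxia peak is called gained, a normoxia peak that shared no base with any 36 h peak is called lost, and the others are called shared. By this rule 15171 peaks were gained and 12398 were lost.

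4T1 is a mouse mammary carcinoma line. The series measured fixed 4T1 cells by bulk ATAC-seq in a multi-index form of the assay, in 14 samples of 7 groups, with 2 replicates per group. The hypoxia cells were kept at 1% oxygen in a hypoxia workstation and fixed without leaving it, after 36 h in the group used here and after 6, 12, 24, 48 or 72 h in the others. The normoxia group is labelled a normoxic culture of the same line, with no oxygen level, no compound and no time. Its treatment text is the one written for the hypoxia samples, and a figure legend of the study that concerns staining of the same line gives its control an oxygen level below that of air, so the oxygen level of the normoxia cells is not settled by these sources. All groups are of 1 cell line without any genetic change stated in the labels and grown in culture. For each group the authors had merged the 2 replicates before peak calling. There is therefore no replicate error and no test between the groups, and every interval below is an exact 95% binomial interval that covers counting error only.

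In ATAC-seq a transposase inserts sequencing adapters where DNA is accessible, so a pile of reads marks a promoter, an enhancer or another region that nucleosomes leave open. In low oxygen the prolyl hydroxylases that mark HIF alpha subunits for destruction by the VHL ligase lose activity, and the HIF dimer binds a short core sequence near genes of glucose use, acid export, vessel growth and oxygen sensing. AP-1, the Fos and Jun dimers, binds many distal enhancers of epithelial tumor cells, and CTCF binds sites that organise chromatin loops. The question behind the time course was whether low oxygen by itself alters access at the motifs of HIF, Fox, E2F, Atoh and Pit1 factors, which the authors followed in tumor cells.

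Before the values, these are stretches of reference sequence (mm9, forward strand) around the summits of peaks that the results turn on, with 60 bp on each side of the summit. The first set holds gained peaks that are among the strongest, with AP-1 matches (TGACTCA or TGAGTCA on either strand) in capitals. The first of them, the strongest gained peak of all, has no AP-1, HIF or RUNX match in this stretch.
4930533K18Rik (chr10:70340525-70340645): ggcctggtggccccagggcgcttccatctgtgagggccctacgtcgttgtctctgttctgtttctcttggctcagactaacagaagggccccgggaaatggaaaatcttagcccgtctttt
Vmn2r3 (chr3:64055583-64055703): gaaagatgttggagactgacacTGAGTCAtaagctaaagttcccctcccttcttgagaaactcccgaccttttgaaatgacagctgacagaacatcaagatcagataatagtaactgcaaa
Etaa1 (chr11:18161182-18161302): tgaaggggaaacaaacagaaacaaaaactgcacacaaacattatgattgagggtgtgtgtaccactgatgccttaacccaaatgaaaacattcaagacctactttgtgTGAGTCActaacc
Gm9947 (chr1:14640581-14640701): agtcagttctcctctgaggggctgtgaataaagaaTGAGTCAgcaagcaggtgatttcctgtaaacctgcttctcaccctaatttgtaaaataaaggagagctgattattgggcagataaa

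The second set holds 2 of the strongest lost peaks, shown because the same letters occurred there. Capitals mark the HIF core (ACGTG or GCGTG on either strand) in the first and the AP-1 match in the second.
Bpifb9b (chr2:154120532-154120652): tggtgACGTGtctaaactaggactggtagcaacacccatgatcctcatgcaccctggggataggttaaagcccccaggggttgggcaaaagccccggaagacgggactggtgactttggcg
Fbxo28 (chr1:184292113-184292233): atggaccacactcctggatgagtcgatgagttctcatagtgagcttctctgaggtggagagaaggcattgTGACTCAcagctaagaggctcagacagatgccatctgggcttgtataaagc

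The third set holds the lost peaks of highest fold enrichment that had a CTCF match within 60 bp of the summit and lay outside annotated UTRs, shown because CTCF matches differed most, as a ratio, between gained and lost peaks. Capitals mark the CTCF match.
Chl1 (chr6:103256776-103256896): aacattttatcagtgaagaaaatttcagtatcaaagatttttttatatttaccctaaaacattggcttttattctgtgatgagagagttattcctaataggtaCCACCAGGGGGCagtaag
Zfp612 (chr8:112595616-112595736): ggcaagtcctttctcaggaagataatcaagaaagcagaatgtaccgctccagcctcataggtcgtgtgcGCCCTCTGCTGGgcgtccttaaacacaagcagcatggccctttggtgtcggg
Gys1 (chr7:52706824-52706944): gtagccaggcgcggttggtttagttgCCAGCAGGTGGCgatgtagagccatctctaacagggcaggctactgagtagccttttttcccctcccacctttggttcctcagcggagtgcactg
Pcdh15 (chr10:72474820-72474940): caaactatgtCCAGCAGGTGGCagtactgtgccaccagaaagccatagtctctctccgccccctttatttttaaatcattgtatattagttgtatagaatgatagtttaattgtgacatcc

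The fourth set holds gained peaks chosen in the same way with a C/EBP match (TTGCNNAA on either strand, in capitals), one of the sequences that were more common in gained than in lost peaks.
Thbs1 (chr2:117838075-117838195): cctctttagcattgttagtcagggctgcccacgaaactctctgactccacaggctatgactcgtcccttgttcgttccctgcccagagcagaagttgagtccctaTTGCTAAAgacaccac
Antxr2 (chr5:98263871-98263991): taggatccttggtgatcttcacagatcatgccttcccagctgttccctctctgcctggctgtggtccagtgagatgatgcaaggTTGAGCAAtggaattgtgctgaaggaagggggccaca

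The fifth set holds peaks at 2 promoters of fixed gene lists that were called at 36 h and not in normoxia, with the HIF core in capitals.
P4ha2 (chr11:53914277-53914397): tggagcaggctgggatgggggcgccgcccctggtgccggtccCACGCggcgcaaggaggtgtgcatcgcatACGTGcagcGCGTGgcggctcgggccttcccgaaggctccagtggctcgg
Tet1 (chr10:62328077-62328197): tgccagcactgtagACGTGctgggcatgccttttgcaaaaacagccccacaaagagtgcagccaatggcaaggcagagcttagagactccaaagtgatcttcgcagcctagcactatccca

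The last set holds a shared region that stood much higher in the order of the 36 h list and one that stood much lower, both with AP-1 matches in capitals.
Dclk1 (chr3:55111606-55111726): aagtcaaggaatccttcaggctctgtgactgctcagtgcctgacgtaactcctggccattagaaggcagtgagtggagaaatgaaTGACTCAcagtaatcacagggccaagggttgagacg
Mamld1 (chrX:68203640-68203760): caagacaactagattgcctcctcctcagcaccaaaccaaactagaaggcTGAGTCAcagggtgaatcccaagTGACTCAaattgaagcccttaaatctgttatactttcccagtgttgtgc

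The strength of a peak is given here by 3 quantities from the deposited statistics of its summit: the fold enrichment, a ratio of summit reads to the local background of the same list; the -log10 q, the caller's significance against that background; and the summit reads, a whole number recovered from the fold enrichment and the p-value. The lists differed in depth. The genome background was 2.22 reads per summit window at 36 h and 0.926 in normoxia, the lowest of the 7 lists, which ran from 0.926 to 3.25. The median summit held 22 reads at 36 h and 16 in normoxia, and the weakest summit held 8 and 5 reads. In the 45432 pairs of shared peaks the median summit stood 12.6-fold over the genome background at 36 h and 21.6-fold in normoxia. The median fold enrichment of these pairs was 6.52 at 36 h and 7.27 in normoxia. The added read lowers the ratio more where the background is lower, as in normoxia. Signal over background and time at 1% oxygen cannot be told apart in these lists. Of 12 epithelial genes on a fixed list, 11 had a promoter peak both at 36 h and in normoxia, among them Cdh1, the E-cadherin gene, and Epcam, and Cldn7 had none in either. Of 7 immune marker genes, 6 had no promoter peak in either list, Ptprc, the gene of the leukocyte antigen CD45, among them, and of 7 stromal and endothelial marker genes 4 had none in either.

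Nearly all strong peaks were shared, and gained and lost peaks were mostly weak. The gained peaks made up 24.2% of the 36 h list (interval 23.9% to 24.5%), and the lost peaks made up 20.6% of the normoxia list (20.3% to 21.0%). When the 36 h list was cut into 10 equal parts by fold enrichment, 1 of the 6269 strongest peaks was gained (0.016%), against 12.4% of the fifth part and 58.8% of the weakest. In the normoxia list 1 of the 6007 strongest peaks was lost (0.0166%), against 10.8% of the fifth part and 51.9% of the weakest. The median fold enrichment was 3.73 in gained peaks and 6.45 in shared peaks of the same list, and it was 4.15 in lost peaks and 7.14 in shared normoxia peaks. Gained peaks had a median of 13 summit reads against 28 in shared peaks, and lost peaks had 8 against 20. They were also narrower, with a median width of 269 bp in gained and 255 bp in lost peaks, against 504 and 492 bp in shared peaks of the respective lists.

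**Figure D1:**
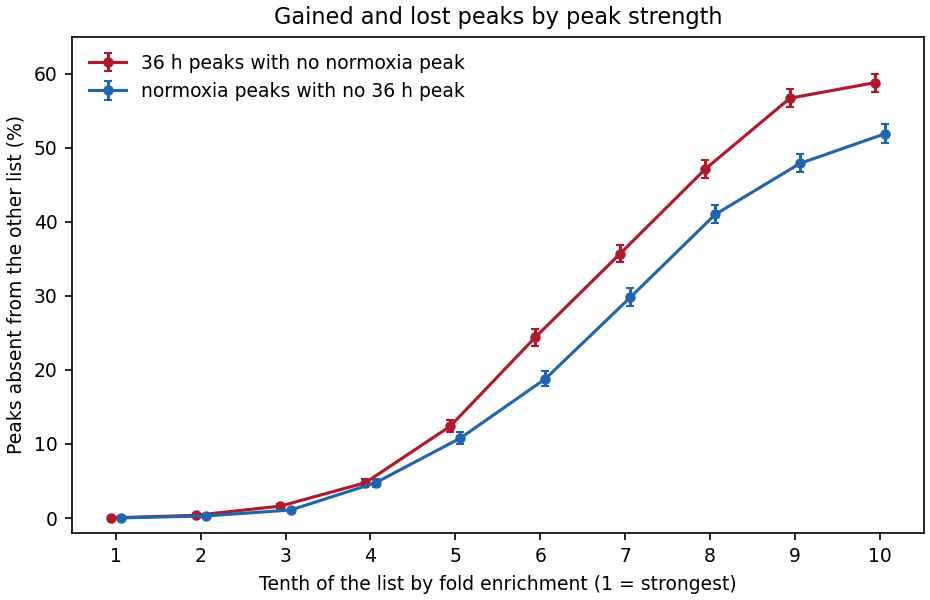
Share of 36 h peaks with no normoxia peak (red) and of normoxia peaks with no 36 h peak (blue), in percent, in 10 equal parts of each list ordered by fold enrichment from the strongest (1) to the weakest (10). Bars are exact 95% binomial intervals. Both curves start below 0.1% and end at 58.8% and 51.9%.

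Because the lists differed in depth, summit reads were also scaled between them. If every gained peak had kept its 36 h summit reads in normoxia, scaled by the median ratio of shared pairs (0.754 normoxia reads per 36 h read), its normoxia summit would hold a median of 9.81 reads. The scaled reads were at or above 7, percentile 10 of the called normoxia summits, for 88.6% of gained peaks. They were at or above the median normoxia summit of 16 reads for 8.39%. For lost peaks the same scaling gave a median of 10.6 reads at 36 h, and 46.5% reached 11 reads, the corresponding level of the 36 h list. Percentile 10 of called summits is not a limit of detection, and the ratio comes from regions called in both lists. How much of the gained and lost sets is due to detection was not tested.

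Among the 20000 peaks of highest fold enrichment in each list, 4203 of the 36 h peaks (21.0%) had no partner among the 20000 of normoxia, and 4200 of the normoxia peaks (21.0%) had none among those of 36 h. Nearly all of these had a weaker partner further down. A peak in the full other list was present for 4039 of the 4203 (96.1%, 95.5% to 96.7%) and for 4063 of the 4200 (96.7%, 96.2% to 97.3%). Of the 20000 strongest 36 h peaks 164 (0.82%) had no normoxia peak at all, and of the 20000 strongest normoxia peaks 137 (0.685%) had no 36 h peak. The difference among strong peaks was thus mostly one of order within the lists, and the fold enrichments of shared pairs followed each other with a Spearman correlation of 0.789 over 45432 pairs, which are regions of the same 2 lists and not replicates. Against the nearest time points the share of 36 h peaks without a partner was lower than against normoxia on the full lists, with 13.8% for 24 h and 12.0% for 48 h, and among the 20000 strongest of each list it was 18.6% and 18.9%. In the reverse direction 25.3% of the 24 h peaks and 26.6% of the 48 h peaks had no 36 h peak. The 24 h and 48 h lists are longer, with 71656 and 74284 peaks.

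The strongest gained peak lay in an intron of 4930533K18Rik (chr10:70340254-70341164). It held 47 summit reads at 36 h with a fold enrichment of 10.9 and a -log10 q of 33.9, and normoxia had no peak there. In the 6, 12, 24, 48 and 72 h lists the fold enrichment was 6.34, 7.76, 10.1, 10.4 and 10.2. All 6 hypoxia lists thus held this region, and normoxia alone lacked it.

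The gained peak near Acsl3, which encodes a long-chain acyl-CoA synthetase, lay 54648 bp from a gene start and was highest at 36 h, with a fold enrichment of 10.3 and 32 reads. At 6, 12 and 24 h the fold enrichment was 3.06, 6.29 and 8.5, and at 48 and 72 h it was 8.24 and 4.54. This region had its highest value of the 7 lists at 36 h. The peak near the vomeronasal receptor gene Vmn2r3, in an intergenic region with an AP-1 match, was also highest at 36 h, with 10.2 against 6.17, 7.14 and 6.91 at the 3 earlier times and 9.01 and 6.96 at the later ones. The peak near Vamp4, a gene of a vesicle fusion protein, had a fold enrichment of 9.39 at 36 h and lay between 3.29 and 6.92 in the other hypoxia lists. The gained peaks named here were chosen by their 36 h fold enrichment, so a high 36 h value is part of the choice.

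The promoter of Tab2, an adaptor of the TAK1 kinase in inflammatory signalling, held a gained peak with its summit 506 bp from a gene start (chr10:7643210-7643771). Its fold enrichment was 10.2 at 36 h with 36 reads, against 8.38, 8.62, 6.65 and 5.61 in the 12, 24, 48 and 72 h lists. Normoxia and 6 h lacked a peak at this position. Tab2 is not among the genes counted below with a gained promoter, so it had another promoter peak in normoxia. Within 100 bp of this summit there were matches to AP-1 and to the HIF core. The promoter of Ap1b1, which encodes a subunit of a clathrin adaptor and is unrelated to the transcription factor AP-1, had a gained peak 2 bp from its start with a fold enrichment of 9.32 and 29 reads. In the other hypoxia lists it lay between 4.7 and 8.81.

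Other gained peaks of this strength lay in introns of Fbxw4 and Mpped2 and of Msra, which encodes methionine sulfoxide reductase, and between genes near Etaa1, Trib2 and Gm9947. The Fbxw4 intron peak differed from the rest in being strongest at 6 h, with a fold enrichment of 12.2 against 9.72 at 36 h and 5.99, 4.57, 5.19 and 7.6 at 12, 24, 48 and 72 h. The region near Trib2, a gene of a pseudokinase, was highest at 12 h with 13.9 against 9.63 at 36 h. Of the 12 strongest gained peaks, which had fold enrichments of 9.32 to 10.9 at 36 h, 12 had a peak at 12, 24, 48 and 72 h and 9 had one at 6 h. These 6 comparisons share the normoxia list, so a region weak or missed there is gained in each of them. The lists also differ in length, with 49006, 81732, 71656, 74284 and 64083 peaks at 6, 12, 24, 48 and 72 h. How far the counts follow that length was not tested, and the same share over all gained peaks is not given here.

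The strongest lost peak lay 12371 bp from the start of Bpifb9b, in an intergenic region (chr2:154120415-154120773). It held 28 reads in normoxia with a fold enrichment of 14.5, against 4.23, 4.19 and 3.87 in the 6, 12 and 24 h lists. The 36, 48 and 72 h lists lacked it. This was the 1 lost peak among the strongest of 10 parts of the normoxia list. The intron peak of Adamtsl3, a gene of a secreted matrix protein, had the same pattern of calls, with 10.2 in normoxia, 4.47, 11.4 and 5.62 at 6, 12 and 24 h, and none from 36 h on.

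The other 10 of the 12 strongest lost peaks were called again at 48 h. Lost peaks have no 36 h peak by the rule, so a gap at 36 h is part of the choice, here and in the lost promoters below. The promoter peak of Smc1a, which encodes a cohesin subunit, had a fold enrichment of 10.9 in normoxia and 6.59, 6.32 and 3.41 in the 12, 24 and 48 h lists, and was not called in the others. That gene is not among those counted below with a lost promoter, so it had another promoter peak at 36 h. An intron peak of Eri3 had 10.9 in normoxia and 12.3, 5.97, 8.81 and 5.68 in the 12, 24, 48 and 72 h lists. The peak near Srek1, a gene of a splicing regulator, had 10.4 in normoxia and 12.6, 10.9, 8.53 and 6.53 at 12, 24, 48 and 72 h. Neither was called at 6 h, and all 3 regions were called on both sides of the 36 h list.

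The peak near Fbxo28 was called in every list but that of 36 h, with fold enrichments of 10.9 in normoxia and 6.52, 7.88, 8.12, 6.3 and 4.26 at 6, 12, 24, 48 and 72 h. It held 39 reads in normoxia, the most among the 12. The peaks near Tbc1d5, in an intron of Pppde1 near Gm9982, and in an intron of Itgae near Gsg2 were likewise called in the 6 other lists and not at 36 h. The peak near Gsta2, a glutathione S-transferase gene, had 10.4 in normoxia and 2.99, 7.03 and 6.54 at 12, 24 and 48 h. Of the 12 lost peaks 12 had a peak at 12 h and at 24 h, 10 at 48 h, and 6 each at 6 and 72 h. The 6 and 72 h lists are shorter than those of 12, 24 and 48 h, and the part of list length in these counts was not tested. The same share over all lost peaks is not given here. Peaks near Gm6984 and Gm17350 had 10.4 and 10.3 in normoxia, and 5.62 and 3.87 at 24 h.

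**Figure D2:**
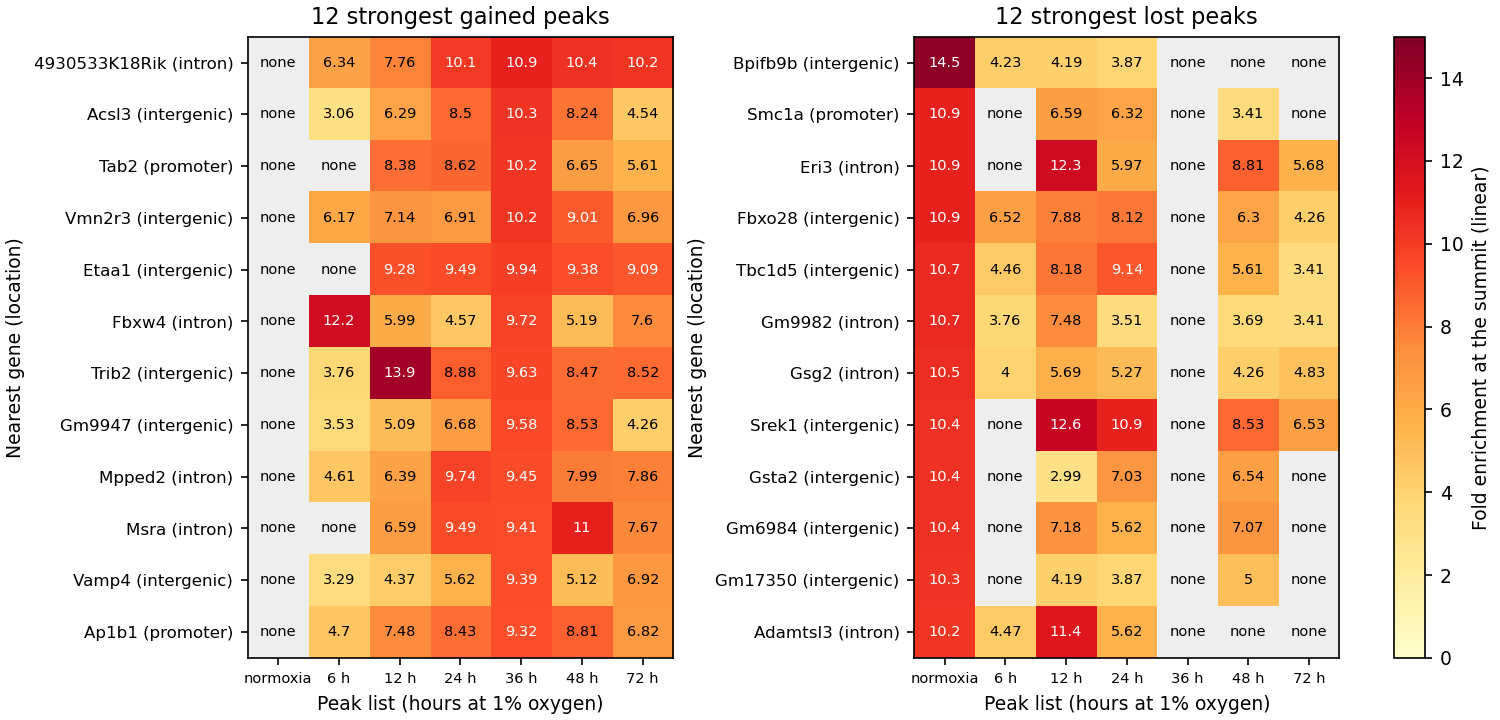
Fold enrichment at the summit (colour and number, linear) of the 12 strongest gained peaks (left) and the 12 strongest lost peaks (right) in the 7 lists, with grey cells for no peak. The gained peaks have no normoxia peak by the rule and a peak in nearly all hypoxia lists, and 10 of the 12 lost peaks have a peak again at 48 h.

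Gained and lost peaks were mostly distal. A promoter, the 1 kb on each side of any start of a protein-coding gene, was overlapped by 1541 of the 15171 gained peaks (10.2%, 9.68% to 10.6%) against 24.7% of shared 36 h peaks, and by 917 of the 12398 lost peaks (7.4%, 6.94% to 7.87%) against 25.0% of shared normoxia peaks. Introns held 36.7% of gained and 39.4% of lost peaks, and 50.7% of lost peaks were intergenic. The median distance to the nearest gene start was 26299 bp in gained and 23504 bp in lost peaks, against 15858 and 15724 bp in shared peaks. In shared peaks of both lists the promoter share was highest at a -log10 q of 10 and over, at 31.3%. Across ranges of -log10 q it ran from 9.36% to 11.9% in gained and from 6.1% to 7.77% in lost peaks. The shares were therefore also compared at like strength. Among peaks with a -log10 q of 5 to 10 the promoter share was 10.5% in gained and 15.7% in shared peaks, and it was 7.19% in lost and 16.9% in shared peaks (6.35% to 8.11% against 16.2% to 17.6%). At a -log10 q of 3 to 5 it was 9.75% in gained against 12.2% in shared peaks, and 7.48% in lost against 15.7%. In both ranges the promoter share of lost peaks was under that of gained peaks, with counting intervals that do not overlap. The ranges match strength within a list, since -log10 q also depends on depth. Gained peaks had a median -log10 q of 4.04 with 13 reads, and lost peaks had 3.9 with 8 reads.

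**Figure D3:**
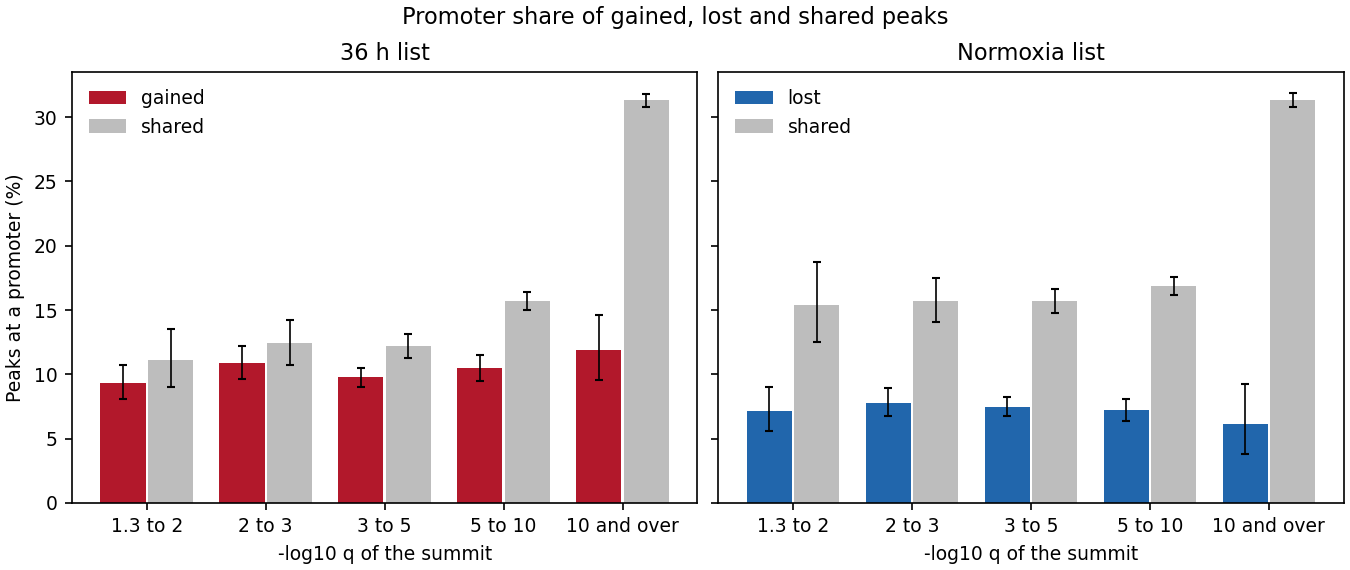
Share of peaks at a promoter (percent) in gained and shared peaks of the 36 h list (left) and in lost and shared peaks of the normoxia list (right), by the -log10 q of the summit. Bars are exact 95% binomial intervals, and lost peaks lie between 6.1% and 7.77% in all 5 ranges while shared normoxia peaks lie between 15.4% and 31.3%.

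No chromosome stood far from the rest among the autosomes and X. The gained share ran from 21.0% on chromosome 17 to 27.1% on chromosome 1, and the lost share ran from 17.4% on chromosome 19 to 22.2% on chromosome 5. Among the genes with the most gained or lost peaks several held many of both. Within 10 kb of the gene body, Macrod2, a gene of 1998 kb, held 15 gained and 13 lost peaks, and Pde4d, a phosphodiesterase gene, held 13 gained and 12 lost. Etl4 held 15 and 12. Arfip1 held 24 gained and 8 lost peaks and Fgfr2, a fibroblast growth factor receptor gene, held 10 gained and 26 lost. The annotated models of these 2 genes are 1391 and 3009 kb long and so take in neighbouring genes, as does Gm20388 with 50 gained and 58 lost peaks in 4435 kb. Slc39a11, a zinc transporter gene, held 14 gained and 9 lost, and Mast4, a kinase gene, 4 gained and 11 lost.

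Counted by gene, promoter peaks were found in both lists for 11063 of 22225 protein-coding genes and in neither for 10206. A promoter peak was present at 36 h and absent in normoxia for 640 genes (2.88% of all), and present in normoxia and absent at 36 h for 316 (1.42%). The gained promoters were weak, with a median -log10 q of 4.04 and a median fold enrichment of 3.9 at 36 h, against 27.5 and 8.48 for genes with a peak in both lists. For 622 of the 640 the strongest 36 h peak of the promoter was itself a gained peak. For the other 18 it was a shared peak that touched the 1 kb window at 36 h alone. By the strongest peak, 302 of the 316 lost promoters rested on a lost peak and 14 on such an edge. Among the 20000 strongest peaks of each list the numbers were 979 genes at 36 h alone (4.4%) and 794 in normoxia alone (3.57%).

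Strong gained promoters that rested on a gained peak, beside Ap1b1, were those of Adam23, Nudcd3, Tdrkh and Hs3st3b1. The Tdrkh promoter, of a gene of the piRNA pathway, had 7.88 at 36 h, against 3.29, 7.57, 3.13 and 6.82 in the 12, 24, 48 and 72 h lists. The Hs3st3b1 promoter, of a heparan sulfate sulfotransferase gene, had 7.84 with 36 reads at 36 h and 3.97, 7.48, 6.95, 7.75 and 8.05 at the other times. Adam23, a gene of a cell-surface disintegrin, and Nudcd3 both had 8.08 with 25 reads. Tmem69, 2900092C05Rik, Ebf2 and Fgl1 had higher values, of 10.7, 9.94, 9.29 and 8.23, and their peaks were shared ones with summits 1251 to 1680 bp from the start that reached the window in hypoxia lists alone.

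The strongest lost promoters that rested on a lost peak were those of Slc2a5, Hist1h4m and Sdk2. The promoter of Slc2a5, the fructose transporter gene, had a fold enrichment of 8.83 with 16 reads in normoxia, and 5.69, 5.97, 5.4 and 5.68 at 12, 24, 48 and 72 h. The promoter of Hist1h4m, a histone H4 gene, had 8.31 with 15 reads in normoxia and 4.7, 7.78, 6.68 and 5.97 at 6, 12, 24 and 48 h. That of Sdk2, an adhesion protein gene, had 8.12 in normoxia and 6.02, 3.64, 4.98 and 5.5 at 12, 24, 48 and 72 h. In all 3 the peak was missing at 36 h and present at 24 and 48 h. Olfr457, A630033H20Rik, Gm757, Metap2, Gm9808, Ccr3 and Dub1a had normoxia values from 8.46 to 14.9 on shared peaks that reached the window in 1 of the 2 lists.

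Of 10 genes of the HIF pathway and 20 of glucose use, 8 and 19 had a promoter peak in both lists. Of 196 genes on 19 fixed lists, which also hold markers of epithelial, mesenchymal, immune and stromal cells and genes of the cell cycle, 195 were in the annotation, and 150 of them had a promoter peak in both lists, 14 at 36 h alone, 0 in normoxia alone and 31 in neither. The 14 of 195 stand beside 2.88% of all genes, and the 0 beside 1.42%. The list genes also differed from all genes in that 150 of 195 had a promoter peak in both lists, against 11063 of 22225. The 14 peaks had a median -log10 q of 3.57 and a median of 13 reads, and 4 of them reached a -log10 q of 5.

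Epas1, the gene of HIF2 alpha, was the 1 gene of the HIF pathway list with a peak at 36 h and none in normoxia. Its fold enrichment was 3.27 with 10 reads, and the 6 h and 24 h lists had 3.04 and 4.92, while the other 3 hypoxia lists had none. The promoter of Hif1a, the gene of HIF1 alpha, was strong in every list, with 15.6 in normoxia, 12.4 at 36 h and 9.73 to 13.7 in the others. Arnt, the gene of the HIF partner subunit, had 15.8 in normoxia and 12.4 at 36 h.

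The oxygen sensors and their partners differed in direction. The promoter of Egln1, the gene of the prolyl hydroxylase PHD2 and itself a known HIF target, had a fold enrichment of 6.88 with 18 reads in normoxia and 10.8 with 42 reads at 36 h. In the other hypoxia lists it had 5.9, 11.4, 8.38, 7.31 and 5.48 at 6, 12, 24, 48 and 72 h, so values at 6 and 72 h lay under that of normoxia. Egln3, of the hydroxylase PHD3, had 5.88 in normoxia and 7.64 at 36 h, with 7.69 to 9.03 at the other times. The promoter of Hif1an, the asparagine hydroxylase that inhibits HIF, had 11.5 in normoxia and 5.59 at 36 h, and 7.76, 14.5, 8.43, 10.8 and 7.95 at the other times. Vhl had 9.31 in normoxia and 6.47 at 36 h, and 5.44, 14.4, 9.52, 11.2 and 4.62 at the other times. Both were lower at 36 h than at 24 and 48 h, and Vhl was lower still at 6 and 72 h.

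Fold enrichment was lower at 36 h than in normoxia for most promoters, with a median ratio of 0.915 over the 11063 genes with a peak in both lists, and it was higher at 36 h for 30.8% of them. Among the 150 list genes 38 were higher at 36 h and the median ratio was 0.886. Values for single genes are best read against the median of all promoters, since the fold enrichment depends on the background of each list. Egln1 had a ratio of 1.57, above that of 98.6% of all such genes, and Hif1an had 0.486, with 0.56% of them lower.

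Of 20 genes of glucose uptake and glycolysis 19 had a promoter peak in both lists, 5 of them higher at 36 h, and Slc2a3 had none in either. Aldoc, an aldolase gene, had a fold enrichment of 5.19 with 9 reads in normoxia and 8.15 with 28 reads at 36 h, and 6.35 to 10.2 in the other hypoxia lists, all above normoxia. Ldha, of the lactate dehydrogenase that makes lactate from pyruvate, had 9.6 with 33 reads in normoxia and 5.44 with 36 reads at 36 h. In the other hypoxia lists Ldha lay between 5.33 and 7.37, all below normoxia. Its summit reads were thus not fewer at 36 h, in a list of higher background. Beside Aldoc, the genes higher at 36 h were Hk2, Eno1, Gpi1 and Tpi1. Hk2, a hexokinase gene, had 11.4 in normoxia and 12.6 at 36 h, and Eno1 had 9.3 and 10.5. Gpi1 had 5.58 and 6.29, and Tpi1 had 5.21 and 5.54. Hk1, another hexokinase gene, had 9.4 in normoxia and 5.79 at 36 h. Slc2a1, of the glucose transporter GLUT1, had 7.53 and 5.02. Pgk1, of phosphoglycerate kinase, had 10.4 and 8.79.

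Among genes of acid handling, Car9, of the HIF-induced carbonic anhydrase that serves as a marker of hypoxic tumor regions, had a promoter peak in 5 hypoxia lists and none in normoxia or at 6 h. Its fold enrichment was 3.37 with 10 reads at 36 h, the lowest of the 5, against 4.79, 4.22, 5.0 and 5.77 in the 12, 24, 48 and 72 h lists. The peak lay inside the gene, 164 bp from the nearest of its 7 annotated starts. Slc16a1, of the lactate transporter MCT1, had 6.53 with 25 reads in normoxia and 9.68 with 60 reads at 36 h, and 6.04, 9.35, 6.09, 5.61 and 6.37 at the other times.

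P4ha2, of a collagen prolyl hydroxylase subunit and a HIF target, lacked a promoter peak in normoxia and had one in each hypoxia list. Its fold enrichment was 4.66 with 14 reads at 36 h and 4.47, 6.29, 4.57, 7.1 and 5.68 at 6, 12, 24, 48 and 72 h. The stretch printed above for P4ha2 holds 3 matches to the HIF core within 60 bp of the summit. The summit lay 89 bp from an annotated start. Vegfa, the gene of the vascular growth factor, had 5.07 with 14 reads in normoxia, 2.58 with 12 reads at 36 h and 4.04 to 7.04 in the other hypoxia lists.

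Tet1, which encodes an oxygen-dependent DNA demethylase, had a promoter peak at 36 h with a fold enrichment of 4.66 and 14 reads and no promoter peak in any other list, a single call with 1 HIF core match in the printed stretch. Kdm5b, of an oxygen-dependent histone demethylase, had 3.82 with 18 reads at 36 h and 2.61, 3.14 and 2.85 at 12, 24 and 72 h. Fosb, of an AP-1 subunit, had 3.58 with 28 reads at 36 h, the highest -log10 q of the 14 at 6.95, and 2.85 to 4.24 in the other 5 hypoxia lists. The other AP-1 genes were not gained. Jun had 6.07 in normoxia and 6.55 at 36 h, and Fosl1 had 7.94 and 5.97.

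Vldlr, Mmp14, Cxcl2, Tnc and Pitx1 had weak gained promoter peaks, with fold enrichments of 3.31, 2.51, 2.87, 3.11 and 3.11 at 36 h. Of the marker genes for other cell types, Lyz2, a myeloid marker, had a promoter peak at 36 h with 3.79 and 16 reads and in no other list. Col1a1 had 4.04 at 36 h and 3.59 to 4.83 in the 12, 24, 48 and 72 h lists, and Pecam1, an endothelial marker, had 3.73. These are 3 of 14 immune and stromal marker genes, beside 2.88% of all genes. Of the 14, Pdgfra had a peak in both lists and 10 had none in either, beside 10206 of all 22225 genes with none. The part of these marker genes in the other results was not tested.

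Genes that recruit myeloid cells or serve invasion held both higher and lower values at 36 h. Il6, the interleukin 6 gene, had a fold enrichment of 6.8 with 13 reads in normoxia and 9.47 with 35 reads at 36 h, and 4.23, 8.38, 10.5, 10.5 and 7.04 at the other times. Mmp13, a collagenase gene, had 6.14 with 13 reads and 9.01 with 28 reads, with 7.29, 8.6, 10.5 and 6.1 at 12, 24, 48 and 72 h. Mmp9, a gelatinase gene, had 4.12 and 6.12, and Ccl2, a monocyte chemokine gene, had 3.75 and 5.67. Of 7 invasion genes and 7 myeloid-recruiting genes with a peak in both lists, 4 each were higher at 36 h, beside 30.8% of all genes, and the medians of the ratio were 1.01 and 1.03 against 0.915 over all genes. Csf2, a myeloid growth factor gene, had 5.19 in normoxia and 3.11 at 36 h, and Spp1, the osteopontin gene, had 6.29 and 4.39. The epithelial keratin genes Krt8 and Krt18 went opposite ways. Krt8 had 7.12 in normoxia and 3.44 at 36 h, and Krt18 had 3.08 and 5.08.

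**Figure D4:**
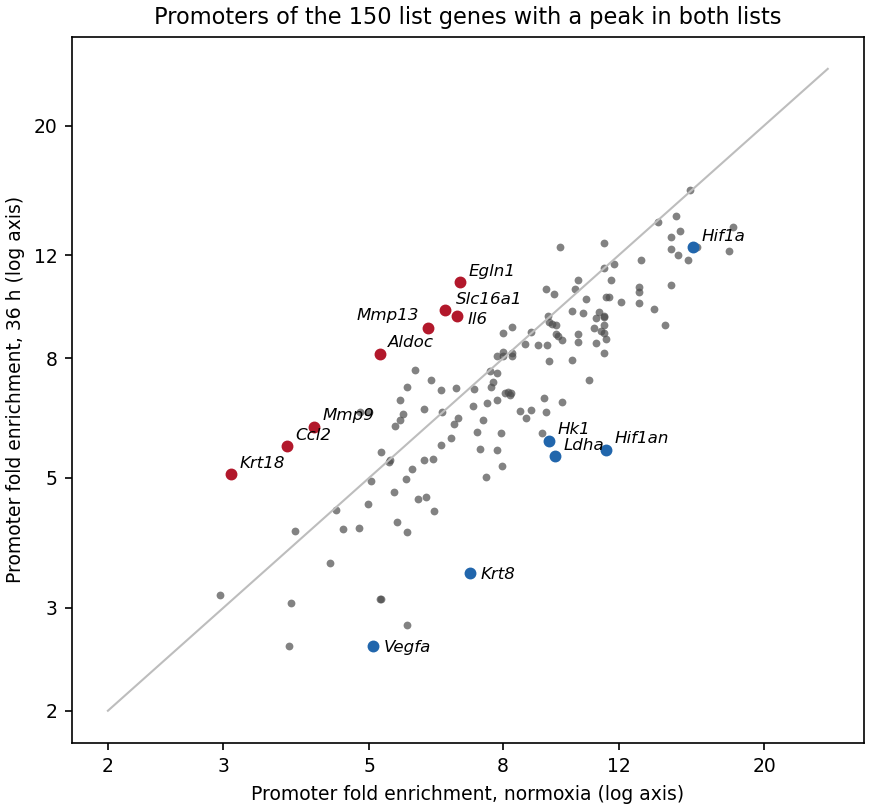
Promoter fold enrichment in normoxia (horizontal) and at 36 h (vertical), both on log axes, of the 150 genes of fixed lists with a peak in both lists, 1 point per gene, with the line of equal values in grey. Named genes above the line are red and those below it blue, and 38 of the 150 points lie above it.

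The order of the lists by fold enrichment differed widely in shared regions, with 49.7% of the 45432 pairs within 10 percentile points of each other and 82.9% within 25. The 6 regions with the greatest rise in rank had 5 or 6 reads in normoxia and 31 to 36 at 36 h. A region 545051 bp from the start of Gata3, a luminal mammary transcription factor gene, stood at rank 58354 by fold enrichment in normoxia and 8199 at 36 h, with fold enrichments of 3.12 and 9.94. It had 4.94, 12, 11.3, 11.1 and 8.23 at 6, 12, 24, 48 and 72 h. The intron of the casein gene Csn1s2b near 4930432K09Rik had 3.12 in normoxia and 9.58 at 36 h, and an intron of Dclk1, a kinase gene, had 3.63 and 10.3. All 6 lay between 8.86 and 14.2 at 12 h, so the high values were not particular to 36 h. Within 100 bp of the summit 4 of the 6 had an AP-1 match, beside 35.7% of all shared 36 h peaks. With 6 regions the difference was not tested.

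The 6 regions with the greatest fall in rank had 19 to 30 reads in normoxia and 8 to 12 at 36 h. An intron peak of Trp63, the gene of the basal epithelial factor p63, had a fold enrichment of 11.4 in normoxia and 2.8 at 36 h, with 5.64, 8.98, 10.6, 8.53 and 5.11 at 6, 12, 24, 48 and 72 h. A region near the hair keratin gene Krt31 had 11.4 and 2.8, one near Mamld1 had 11.9 and 3.11, and one near Ntng1 had 11.8 and 3.3. An intron of Suclg2, a citric acid cycle enzyme gene, had 11.5 and 3.11, and the promoter of Adam33, a metalloprotease gene, had 10.4 and 2.8. In the Trp63 intron the 36 h value was the lowest of the 7 lists, with higher ones on each side. The 6 regions were chosen by their fall in rank at 36 h, so a low 36 h value is part of the choice. AP-1 matches were present in 4 of these 6 as well, beside the same 35.7% of all shared 36 h peaks.

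Motif matches were counted within 100 bp of the summit, on both strands, for 24 fixed consensus sequences, and the counts are a description of letters. CTCF matches, present in 2.53% of all peaks of both lists, were found in 721 lost peaks (5.82%, 5.41% to 6.24%) and in 391 gained peaks (2.58%, 2.33% to 2.84%), against 2.08% and 2.1% of the shared peaks. At a -log10 q of 5 to 10 the share was 7.31% in lost peaks (6.46% to 8.23%) and 3.22% in shared normoxia peaks, and 2.78% in gained (2.29% to 3.34%) and 3.41% in shared 36 h peaks. Lost peaks exceeded gained ones in each of 4 ranges of -log10 q, also at 10 and over, where 17 of 328 lost and 4 of 665 gained peaks had a match. Equal ranges of -log10 q in the 2 lists do not hold equal reads, here and for the motifs below. Among the 20000 strongest peaks of each list it was 2.81% for lost, 0.928% for gained and 0.709% and 0.715% for shared peaks. The lost peaks with a CTCF match printed above were of moderate strength. The one near Chl1 had a fold enrichment of 8.31 with 15 reads in normoxia, and 5.27, 4.26 and 3.41 in the 24, 48 and 72 h lists. The one at the promoter of Gys1, the muscle glycogen synthase gene, had 7.85 with 18 reads in normoxia, 8.08 at 12 h and 6.54 at 48 h, with none at 36 h. Both were called in lists on each side of 36 h.

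AP-1 matches were found in 33.2% of all peaks, and in 26.4% of gained, 26.3% of lost, 35.7% of shared 36 h and 34.8% of shared normoxia peaks. At a -log10 q of 5 to 10 the shares were 32.7% in gained (31.2% to 34.1%) and 29.7% in lost peaks (28.2% to 31.3%), against 34.8% and 34.7%. Among the 20000 strongest peaks of each list the order turned for gained peaks, with 41.2% (39.7% to 42.7%) against 37.3% in shared peaks. For lost peaks it was 37.2% (35.8% to 38.7%) against 36.8% in shared peaks (36.1% to 37.6%), with overlapping intervals. The gained peaks of that set nearly all have a weaker normoxia peak. Outside promoters, in the full lists, the shares were 28.2% in gained and 44.7% in shared peaks.

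The C/EBP sequence was in 8.1% of all peaks, 10.1% of gained (9.58% to 10.5%) and 7.99% of lost peaks (7.52% to 8.48%), against 7.79% and 7.82% of shared ones. At a -log10 q of 5 to 10 it was 10.3% in gained and 7.63% in lost peaks. Among the 20000 strongest it was 7.92% in gained (7.12% to 8.78%) and 7.38% in lost peaks (6.61% to 8.21%), with overlapping intervals. The NFI sequence TTGGCA, in 14.6% of all peaks, was also more frequent in gained (15%, 14.5% to 15.6%) than in lost peaks (13.0%, 12.4% to 13.6%). Gained peaks with a C/EBP match included the region 99477 bp from the start of Thbs1, the thrombospondin 1 gene, with a fold enrichment of 8.48 and 27 reads at 36 h and 4.23, 7.78, 7.73, 5.68 and 3.12 at the other times. Near Antxr2, a gene of a matrix receptor, the fold enrichment was 7.46 at 36 h and 5.99, 8.78, 5.97 and 6.82 at 12, 24, 48 and 72 h.

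The RUNX sequence TGTGGT, in 20.2% of all peaks, was more frequent in lost peaks (23.0%, 22.3% to 23.8%) than in gained ones (19.5%, 18.9% to 20.1%), and at a -log10 q of 5 to 10 the shares were 24.4% and 19.6%. The Snail and ZEB sequence CAGGTG, in 14.1% of all peaks, was in 16.7% of lost and 13.4% of gained peaks, and in 16.9% and 12.9% at a -log10 q of 5 to 10. Among the 20000 strongest peaks of each list it was 13.9% in lost (12.9% to 15%) and 13.6% in gained peaks (12.6% to 14.7%), with overlapping intervals. The HIF core ACGTG or GCGTG, in 27.9% of all peaks, was in 21.1% of gained, 20.4% of lost and 29.9% of the shared peaks of each list. At a -log10 q of 5 to 10 it was 22.6% in gained (21.3% to 23.9%) and 21.2% in lost peaks (19.9% to 22.6%), whose intervals overlap, against 25.3% and 26.2% in shared peaks. The core is part of the E-box CACGTG, so other factors read the same letters. The sequences of promoters, GGGCGGG for SP and KLF factors and CCGGAA for ETS factors, were rarer in gained (4.7% and 3.04%) and lost peaks (3.02% and 3.09%) than in shared ones, of which 13.2% and 8.04% held them at 36 h. GC content moved with these classes. The median within 100 bp of the summit was 47.3% in gained and in lost peaks and 50.2% in shared peaks, and its part in the motif shares was not tested.

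Of the other factors the study followed, sequences of Pit1 and Atoh were found within 100 bp of the summit in a larger share of both gained and lost peaks than of shared ones. Those of E2F were found in a smaller share of both. With whole peaks searched, the Pit1 sequence was in 13.5% of lost against 17.4% of shared peaks and the Atoh sequence in 23.8% against 33.0%. Both directions thus turned for lost peaks. The Atoh sequence also turned for gained peaks, with 22.9% against 33.7% of shared 36 h peaks. Gained and lost peaks were both narrower than shared ones. The Pit1 sequence ATGNATA, in 7.28% of all peaks, was in 8.52% of gained (8.08% to 8.97%) and 9.75% of lost peaks (9.23% to 10.3%), against 6.62% and 6.9% of shared ones. At a -log10 q of 5 to 10 it was 8.06% in gained and 9.46% in lost peaks, against 7.73% and 7.62%. The Atoh sequence CAGATG, in 16.4% of all peaks, was in 17.1% of gained and 18.7% of lost peaks, against 16.0% and 15.9% of shared ones. At that strength the shares were close, with 18% and 18.2% against 17.4% and 17.1% of shared peaks. The forkhead sequence TGTTTAC, in 2.86% of all peaks, was in 3.05% of gained (2.78% to 3.33%) and 3.02% of lost peaks (2.73% to 3.34%), intervals that nearly coincide. The E2F consensus was in 4.04% of all peaks, 2.21% of gained and 1.78% of lost peaks, against 4.62% and 4.63% of shared peaks. Among the 20000 strongest it was in 4.69% of gained and 3.98% of lost peaks, against 6.35% and 6.42% of shared ones. The classes also differed in promoter share, and its part in this was not tested.

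**Figure D5:**
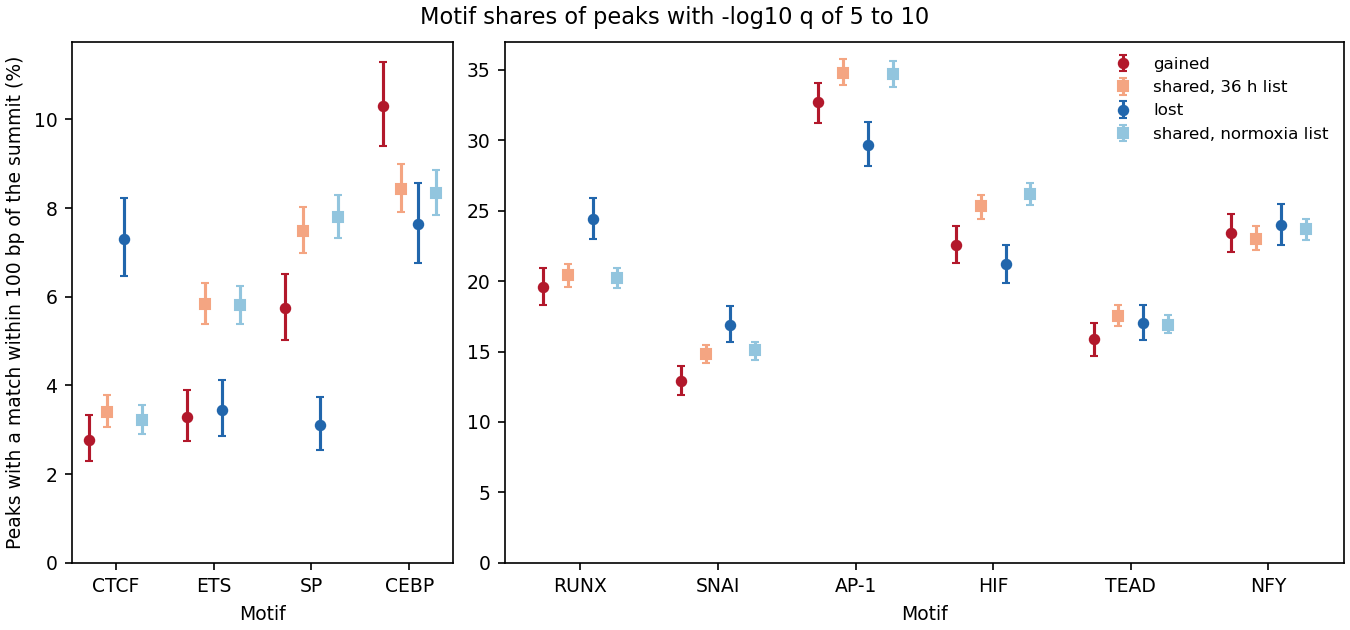
Share of peaks with a motif match within 100 bp of the summit (percent), for peaks with a -log10 q of 5 to 10: gained (red circles) and shared (orange squares) in the 36 h list, lost (blue circles) and shared (light blue squares) in the normoxia list. Bars are exact 95% binomial intervals. CTCF stands out with 7.31% in lost peaks and 2.78% to 3.41% in the other 3 classes.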

How the data were processed

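Bulk ATAC-seq of 4T1 cells had been done in 14 samples of 7 groups; groups follow the sample labels. The authors, by their methods and processing notes, aligned reads to mm9 with Bowtie2 2.1.0, removed duplicates with Picard 1.79, merged the replicates of a group and ran MACS2 (version not given in the sources used here) for narrow peaks. In the deposited lists, fold enrichment relates the reads at the summit to those of the surroundings as a ratio, after a read is added to each. The deposited -log10 p and -log10 q are the caller's p-value and q-value. The deposited score column is the caller's integer rescaling of the -log10 q and was not used. The other deposited columns hold positions. The lowest -log10 q was 1.3 to 1.31. The lists are not scaled to each other, and depth is known here only as summit reads and background.

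Intervals listed with several summits were kept once, with the summit of highest fold enrichment. Any shared base counted as overlap. Summit reads and background were recovered by solving the fold enrichment and -log10 p for whole reads, with a largest misfit of 2.6e-04 in -log10 p. Sequence was read from NCBIM37 (mm9), with genes from GENCODE. Peaks overlapping 1 kb on either side of a protein-coding start were promoter peaks, and others were placed by summit. Alternatives were thresholds of -log10 q of 2 and 5, the 20000 strongest peaks by fold enrichment or by -log10 q, 50% overlap, a distance of 500 bp, merging within 200 bp, autosomes alone, 5 kb promoters and whole-peak motif searches. The members and gene lists were chosen with earlier results of these data known. Named features were the 12 gained and 12 lost peaks and the 10 gained and 10 lost promoters of highest fold enrichment, the 6 shared regions with the greatest rise and fall in rank, the 6 genes with the most gained or lost peaks and every list gene whose promoter call differed. Some features that this rule names are not reported here. Promoters of list genes with a peak in both lists, and peaks with CTCF or C/EBP matches, were chosen after their values were seen. Overlap, read recovery and motif search were tested on simulated data. Scripts ran in Python 3.11.15 with pysam 0.24.0, scipy 1.17.1, pandas 2.3.3, numpy 2.4.6 and, for plots, matplotlib 3.10.9.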

Additional observations from a re-analysis of the deposited data

How the results depend on the processing

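No result had a replicate behind it, so a change in a share is judged against its counting interval, and a count of genes by whether it stays within 1.5 times. No paired analysis was possible because each list pools both replicates of a group, and no replicate could be left out. The gained share of 24.2% was 22.8% and 20.1% with thresholds of -log10 q of 2 and 5, 21.0% and 17.7% among the 20000 strongest by fold enrichment and by -log10 q, 0.82% for the 20000 strongest against the full other list, 27.4% with 50% overlap, 22.1% with 500 bp allowed and 23.9% with merged peaks. The lost share of 20.6% was 18.2% at a -log10 q of 5, 21.0%, 17.7% and 0.685% for the 3 settings of 20000 peaks, 23.3% with 50% overlap and 18.6% with 500 bp allowed, and stayed within its interval in the other 3. The promoter share of gained peaks was 20.1% with 5 kb promoters, 23.1% among the 20000 strongest and 12.9% at a -log10 q of 5. That of lost peaks was 19.4%, 19.3% and 8.94%. Genes with a gained promoter numbered 784 with 5 kb promoters, 979 among the 20000 strongest peaks and 661 at a -log10 q of 5, and those with a lost promoter 544, 794 and 409. With genes that had any such promoter peak, not only the strongest, itself absent from the other list, the numbers were 625 and 304 against 640 and 316. This alternative was chosen after seeing the data. Of 96 motif shares, 75 left their counting interval among the 20000 strongest peaks and 93 when whole peaks were searched. With whole peaks, which are narrower in the gained and lost sets, C/EBP was in 14.1% of gained against 20.0% of shared peaks, and RUNX in 28.7% and CAGGTG in 21.6% of lost against 36.4% and 32.0% of shared peaks, the opposite order to that near summits. The CTCF share was 6.4% in lost and 2.81% in gained peaks.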

Other observations

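Peaks on chromosome Y were listed for some groups and not for others. There were 8 at 36 h, all gained, with none in normoxia, 6 each at 12 and 24 h, 2 at 72 h and none at 6 and 48 h.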
